A study of Mus musculus with 9 samples.

Results

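The Wnt pathway genes described here were 48 of the 55471 genes in the count table. They were chosen by name for their role in the pathway: 11 Wnt ligands, the ligand carrier *Wls*, 13 receptors and co-receptors, 12 intracellular transducers, 4 secreted inhibitors and 7 feedback targets. To see how these genes differed with loss of *Tnfaip2* and with a lipid supplement, 9 RNA sequencing libraries of mouse embryoid bodies (EBs) were compared. EBs are cell aggregates in which embryonic stem (ES) cells start to differentiate. The libraries fell into 3 groups of 3. WT EBs were grown from the parental ES cell line E14, *Tnfaip2*-/- EBs (KO) from a CRISPR-Cas9 derivative of it, and KO_PAPC EBs from the same *Tnfaip2*-/- cells in the presence of 2 lipids, palmitic acid and palmitoyl-L-carnitine (together PA/PC), at 8 μM each. All EBs were formed in hanging drops, plated on gelatin and harvested after 3 days of differentiation. The knockout was a single clone with a premature stop codon, each library held RNA from pooled EBs, and no WT group with PA/PC was analysed here. The methods describe forming EBs in ES cell medium, whose recipe lists leukemia inhibitory factor, before differentiation in MEF medium, whose recipe lists none. For the treated cells they describe MEF medium with PA/PC already while the drops were forming EBs. The labels name no other medium for these cells, so the supplement and a difference in medium cannot be told apart as described. The libraries of a group are described as biological replicates, and for the lipid experiment as independent pools of EBs, so p-values measure the spread between pools of EBs grown from a single line per genotype.

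Wnt proteins are lipid-modified by the acyltransferase Porcn, carried to the cell surface by Wls and bound by Frizzled receptors together with the co-receptors Lrp5 and Lrp6. In the absence of a ligand, a complex of Axin, Apc and Gsk3 marks β-catenin, the product of *Ctnnb1*, for destruction. Once a ligand is bound, Dishevelled proteins inactivate that complex, and β-catenin enters the nucleus and joins TCF/LEF factors on target genes, several of which encode inhibitors of the pathway itself. In ES cells and the early embryo the pathway is known both for sustaining the naive pluripotent state and for inducing the primitive streak.

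*Tnfaip2* itself had 6 to 16 counts per library in WT, 5 to 8 in KO and 14 to 25 in KO_PAPC, which is too low to check the knockout labels, so KO and KO_PAPC mean the libraries labelled so. Sequencing depth was even, with 27362913 to 28914312 counts per library. Library levels are given below as CPM, counts divided by the total of their library and brought to a common scale. Levels of single genes are ranked against each other only per exon length (RPKM). Sums of the marker lists and of the feedback targets are in CPM, so that longer genes weigh more in them. Group differences are log2 fold changes with their standard errors (SE) from edgeR's quasi-likelihood test, in which a gene was called when its p-value adjusted by Benjamini-Hochberg over all genes tested was under 0.05. These fits used TMM factors rather than library totals. With library totals the median over all genes tested moved from -0.02 to -0.18 in both comparisons with KO_PAPC, and it was -0.01 by either scaling for KO against WT. Small changes in KO_PAPC are to be read against that shift. In bulk libraries fewer cells of a type and less RNA per cell cannot be told apart, and marker lists of several cell types differed between the groups. The summed level of 8 neuroectoderm markers was 134 to 139 CPM in WT, 38.9 to 42.9 CPM in KO and 215 to 218 CPM in KO_PAPC. For 9 markers of extraembryonic endoderm the sums were 845 to 910, 472 to 479 and 79.6 to 80.9 CPM, and for 8 pluripotency markers 2297 to 2314, 3559 to 3577 and 2001 to 2029 CPM. The sums of 9 markers of streak and mesoderm were 42.0 to 46.1, 37.6 to 38.5 and 55.6 to 57.7 CPM, and those of 6 fibroblast markers 43.2 to 45.2, 30.02 to 30.2 and 13.3 to 14.6 CPM. Members of several of these lists split for KO against WT. Of streak and mesoderm markers 3 were called higher and 4 lower, and of fibroblast markers 2 higher and 2 lower. Of extraembryonic endoderm markers 2 were called higher and 7 lower. For KO_PAPC against KO, the calls were 5 higher and 2 lower for streak and mesoderm, 2 and 2 for fibroblast and 1 and 7 for pluripotency markers. For KO_PAPC against WT, they were 4 and 2, 4 and 1, and 2 and 6 for the same lists, and 6 and 1 for neuroectoderm markers. Per exon length the fibroblast sum was 5.41 to 5.66 RPKM in WT and 5.74 to 5.98 RPKM in KO, so its direction depends on the unit. No marker was at 0 in all libraries of a group. The part of these differences in the results on Wnt genes was not tested. Mitochondrial genes took 1.85 to 1.87% of counts in WT, 1.96 to 1.98% in KO and 1.26 to 1.34% in KO_PAPC.

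Of the 48 genes, 44 passed the filter on low counts for KO against WT, and 35 of them were called, 11 higher and 24 lower in KO. That is 79.5% of those tested, beside 73.8% of all genes (36.8% higher and 37.1% lower), so the number of calls alone sets these genes little apart. Their median log2 fold change was -0.23, beside -0.01 over all genes tested. A called change of at least 2-fold was seen in 2 genes upwards and 10 downwards, where 8.86% and 6.9% of all genes made such changes. For KO_PAPC against KO, 45 genes were tested, of which 28 were called higher and 12 lower, with 81.8% of all genes called (39.6% higher and 42.2% lower). The median was 0.35, and 14 genes rose and 4 fell by at least 2-fold, beside 9.4% and 18.4% of all genes. For KO_PAPC against WT, 46 genes were tested, and 24 were called higher and 11 lower, with 70.6% of all genes called (34.2% higher and 36.4% lower). The median was 0.13, and 2 genes rose and 5 fell by at least 2-fold, where 2.25% and 11.4% of all genes did. With library totals these last calls were 16 higher and 18 lower. A stricter test against a fold change of 2 called 9, 11 and 4 of the genes in the 3 comparisons, beside 9.14%, 20.7% and 8.02% of all genes. The 2 groups compared did not overlap for 35, 40 and 34 of the genes, beside 75.2%, 82.1% and 73% of all genes. *Wnt10a* and *Lgr5* were too low to be tested in any comparison, *Wnt7a* was too low for KO against WT, and *Wnt3a* was tested only for KO_PAPC against WT. Every pair of comparisons shares 3 libraries, so the values are set side by side and no agreement between comparisons is read from them.

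**Figure D1:**
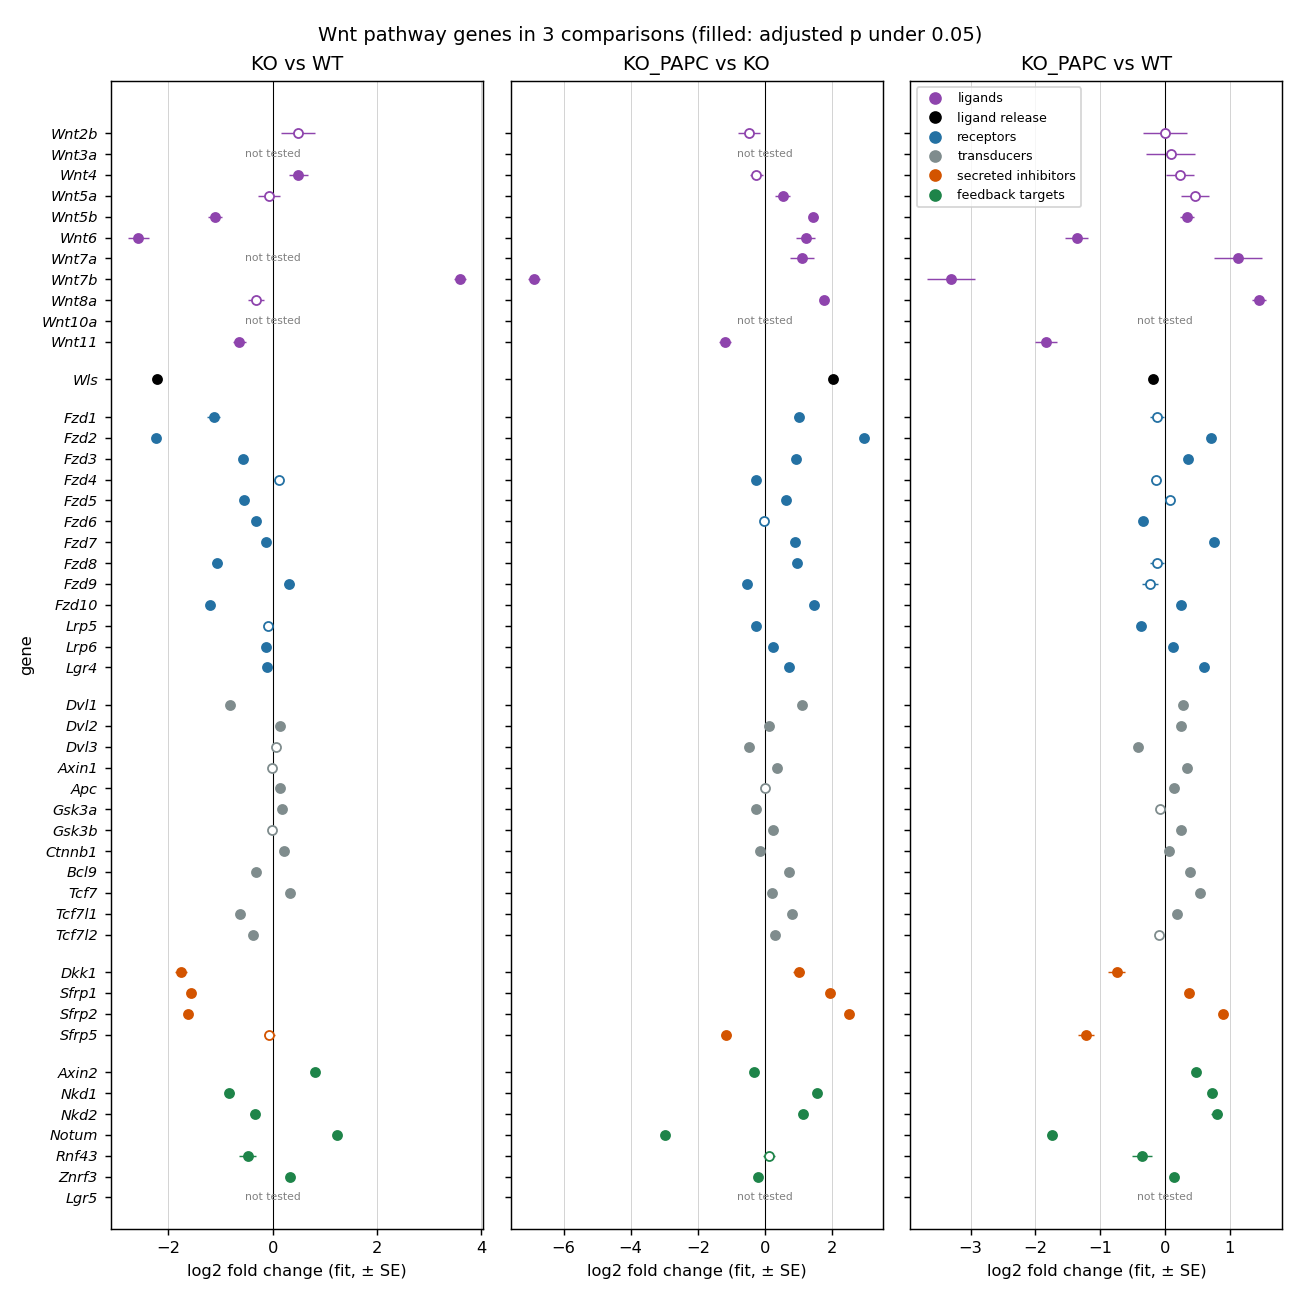
Log2 fold changes of the 48 Wnt pathway genes in the 3 comparisons, 1 row per gene and 1 colour per role, with bars of ± SE. Filled points are genes called by edgeR at an adjusted p under 0.05, and the axes of the panels differ in scale. The receptors lie mostly left of 0 for KO against WT, where 10 of 13 were called lower (all genes: 37.1%). They lie mostly right of 0 for KO_PAPC against KO, where 9 of 13 were called higher (all genes: 39.6%).

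TCF/LEF factors recognise a short DNA core, so the promoter windows of these genes, 250 bases before to 50 bases after the start site in RefSeq on the build GRCm38.p6, were searched for TCAAAG on either strand (CTTTGA on the other). A window was available for 32 of the 48 genes, 39 windows in all, of which 6 held the core, or 15.4%. Over all 32851 windows of the annotation the share was 16.0%, so the core was about as frequent here as elsewhere. The genes with a match were *Dkk1*, *Fzd1*, *Gsk3a*, *Gsk3b*, *Wnt5b* and *Wnt11*. *Dkk1* had 2 matches, at positions -174 and -117 from the start, and 1.73% of all windows had 2 or more. The match of *Wnt11* began at -50 and that of *Wnt5b* at -71, each in 1 of several windows of the gene. The 250 bases before the start are shown for these 3 genes, which changed at least 2-fold in the data below, and for *Axin2*, the feedback target most often used to read the pathway, whose window held no match. *Fzd1* also changed at least 2-fold, but the bases after its RefSeq start were in no GENCODE transcript of the gene, so its window is not shown. Sequences run 5′ to 3′ on the gene's strand and capitals mark the core. A match describes these letters only.
Dkk1 (chr19:30549497-30549746, minus strand): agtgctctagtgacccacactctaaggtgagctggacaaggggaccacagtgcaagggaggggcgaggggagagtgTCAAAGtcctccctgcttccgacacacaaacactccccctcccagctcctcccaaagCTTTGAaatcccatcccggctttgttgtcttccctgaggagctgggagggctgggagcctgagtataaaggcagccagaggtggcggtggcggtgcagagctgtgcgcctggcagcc
Wnt11 (chr7:98834862-98835111, plus strand): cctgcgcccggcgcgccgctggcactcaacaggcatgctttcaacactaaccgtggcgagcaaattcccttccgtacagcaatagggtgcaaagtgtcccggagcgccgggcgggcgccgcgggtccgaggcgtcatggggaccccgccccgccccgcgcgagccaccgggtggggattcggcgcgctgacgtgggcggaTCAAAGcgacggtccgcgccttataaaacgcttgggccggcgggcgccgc
Wnt5b (chr6:119449387-119449636, minus strand): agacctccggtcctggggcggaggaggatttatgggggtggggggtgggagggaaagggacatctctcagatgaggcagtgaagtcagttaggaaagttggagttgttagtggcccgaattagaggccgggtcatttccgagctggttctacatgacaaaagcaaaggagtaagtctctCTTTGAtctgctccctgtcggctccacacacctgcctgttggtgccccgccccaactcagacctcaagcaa
Axin2 (chr11:108920099-108920348, plus strand): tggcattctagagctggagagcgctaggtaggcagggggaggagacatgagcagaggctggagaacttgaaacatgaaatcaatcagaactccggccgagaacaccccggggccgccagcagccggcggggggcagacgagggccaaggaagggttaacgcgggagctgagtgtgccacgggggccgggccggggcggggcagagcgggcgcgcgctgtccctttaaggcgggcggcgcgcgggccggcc

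The ligands changed individually rather than as a group. *Wnt7b*, *Wnt6*, *Wnt5b* and *Wnt11* were called for KO against WT at changes from 12.0-fold higher (*Wnt7b*) to 5.98-fold lower (*Wnt6*), and in KO_PAPC *Wnt8a* and *Wnt5b* were higher than in KO while *Wnt7b* fell almost to the detection limit. Of the 8 ligands tested for KO against WT, 2 were called higher and 3 lower (all genes: 36.8% and 37.1%). The median log2 fold change of these 8 was -0.20. That median was -0.58 without KO replicate 1, -0.33 with DESeq2 and -0.34 without the filter on low counts, where all 11 ligands entered. Of the 9 tested for KO_PAPC against KO, 5 were called higher and 2 lower (all genes: 39.6% and 42.2%), or 4 and 3 with library totals. Of the 10 tested for KO_PAPC against WT, 3 were called higher and 3 lower (all genes: 34.2% and 36.4%), or 1 and 4 with DESeq2.

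*Wnt7b*, a ligand known for its role in the placenta, lung and other epithelia (ENSMUSG00000022382, chromosome 15, 85535437 to 85582473, minus strand), had the largest log2 fold change in all 3 comparisons among the genes of the 48 that passed the filter on low counts. Its level was 1.13, 1.08 and 1.52 CPM in the WT libraries, 15, 13.8 and 16 CPM in KO and 0.108, 0.0731 and 0.144 CPM in KO_PAPC. The 3 groups did not overlap, and KO stood far above both others. In the fit the log2 fold change was 3.59 ± 0.11 for KO against WT (adjusted p = 3.69e-24, edgeR) and -6.89 ± 0.19 for KO_PAPC against KO (adjusted p = 5.51e-28, edgeR). In KO_PAPC it rested on 3, 2 and 4 counts. From the summed counts, 1280 in KO and 9 in KO_PAPC, the ratio of KO to KO_PAPC was 138, with an exact 95% interval from 72.5 to 303 that covers counting error only. The ratio of WT to KO_PAPC, from 104 and 9 counts, was 11.4 (5.80 to 25.7 by the same interval). The antisense gene *AU022754*, which overlaps 6.62% of the exon bases of *Wnt7b*, had at most 1 count in any library.

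*Wnt6*, a ligand of early ectoderm and mesoderm, stood at 2.89, 3.06 and 3.15 CPM in WT, 0.315, 0.642 and 0.553 CPM in KO and 0.864, 1.39 and 0.897 CPM in KO_PAPC. KO was the lowest group, KO_PAPC lay between, and no groups overlapped. Its fitted log2 fold change was -2.58 ± 0.20 for KO against WT (adjusted p = 2.26e-13, edgeR), 1.22 ± 0.28 for KO_PAPC against KO and -1.36 ± 0.18 for KO_PAPC against WT. *Wnt5b*, a ligand that mostly signals without β-catenin, was at 4.55, 5.18 and 5.43 CPM in WT, 2.52, 1.89 and 2.59 CPM in KO and 5.22, 6.54 and 5.35 CPM in KO_PAPC. KO lay below both other groups, which overlapped. As a log2 fold change, the difference was -1.11 ± 0.13 for KO against WT (adjusted p = 1.92e-09, edgeR) and 1.45 ± 0.13 for KO_PAPC against KO (adjusted p = 1.3e-12, edgeR). The call for KO_PAPC against WT, at 0.34, was lost without KO_PAPC replicate 2 (adjusted p = 0.0784), with DESeq2 (adjusted p = 0.0503) and with library totals (adjusted p = 0.156).

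*Wnt8a*, a ligand of the primitive streak, was at 3, 4.1 and 3.48 CPM in WT, 3.71, 2.39 and 2.32 CPM in KO and 8.42, 8.33 and 8.94 CPM in KO_PAPC. WT and KO overlapped and KO_PAPC stood above both. The log2 fold change was 1.77 ± 0.12 for KO_PAPC against KO (adjusted p = 3.65e-16, edgeR) and 1.45 ± 0.10 for KO_PAPC against WT (adjusted p = 6.21e-12, edgeR). For KO against WT it was -0.33 ± 0.15 (adjusted p = 0.0533, edgeR), which passed the threshold without KO replicate 1 (adjusted p = 0.00135), without WT replicate 1 (adjusted p = 0.00682) and without the filter on low counts (adjusted p = 0.0259). *Wnt11*, a ligand of cell movement and of heart formation, was at 3.81, 4.17 and 4.82 CPM in WT, 2.98, 2.75 and 2.46 CPM in KO and 0.792, 1.13 and 1.26 CPM in KO_PAPC. It was lower in KO than in WT and lower again in KO_PAPC, with no overlap between the groups. In the fit the log2 fold change was -0.64 ± 0.13 for KO against WT, -1.19 ± 0.18 for KO_PAPC against KO and -1.84 ± 0.17 for KO_PAPC against WT (adjusted p = 4.75e-10 for the last, edgeR). The antisense gene *Gm8398*, over 8.80% of its exon bases, had 0 counts in all 9 libraries.

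The other ligands were low, with means between 0.0120 CPM (*Wnt10a* in KO_PAPC) and 1.70 CPM (*Wnt4* in KO). *Wnt4* was called higher in KO, with a log2 fold change of 0.49 ± 0.19, but not with DESeq2 (adjusted p = 0.156), nor in edgeR without KO replicate 1 (adjusted p = 0.0774), WT replicate 2 (adjusted p = 0.0930) or WT replicate 3 (adjusted p = 0.0670). *Wnt5a*, another ligand that mostly signals without β-catenin, was called higher for KO_PAPC against KO at 0.53 ± 0.22, a call lost with DESeq2 (adjusted p = 0.171), with library totals (adjusted p = 0.124) and without KO replicate 1 (adjusted p = 0.120), KO replicate 2 (adjusted p = 0.0513) or KO_PAPC replicate 1 (adjusted p = 0.237). Against WT, KO_PAPC was called higher only without KO_PAPC replicate 2 (adjusted p = 0.0118). *Wnt7a* rested on 4 to 18 counts per library. Its fitted log2 fold change was 1.10 ± 0.36 for KO_PAPC against KO and 1.13 ± 0.37 for KO_PAPC against WT. Both calls were lost with DESeq2 (adjusted p = 0.0869 and 0.0888) and without KO_PAPC replicate 2 (adjusted p = 0.0508 and 0.0603), and the second also without WT replicate 1 (adjusted p = 0.0599). *Wnt2b* and *Wnt3a* were called in no comparison. *Wnt10a* had 27 counts over the WT libraries, 4 over KO and 1 over KO_PAPC, a ratio of WT to KO of 6.89 (exact 95% interval 2.40 to 27.1, counting error only) and of WT to KO_PAPC of 26.8 (4.41 to 1095), without a test across libraries.

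Per exon length, the summed level of the 11 ligands was 6.78 to 7.94 RPKM in WT and 6.68 to 7.86 RPKM in KO, which overlapped, and 8.35 to 8.88 RPKM in KO_PAPC. In CPM the sum was 19.1 to 22.4 in WT, 25.2 to 28.3 in KO and 19.8 to 20.7 in KO_PAPC. KO was then the highest group without overlap, so the order of the sums depends on the unit. The ligands that made up the RPKM sum differed between the groups. In WT, *Wnt8a* (26.9 ± 3.00%, SD, n = 3), *Wnt5b* (25.4 ± 0.287%), *Wnt6* (18.5 ± 0.802%) and *Wnt11* (13.8 ± 0.818%) held most of it, and *Wnt7b* held 3.39 ± 0.529%. In KO, *Wnt7b* held 41.8 ± 2.64% and *Wnt8a* 21.8 ± 4.70%, whereas *Wnt6* held 3.21 ± 1.29%. In KO_PAPC, *Wnt8a* held 56.5 ± 2.39% and *Wnt5b* 24.7 ± 2.66%, and *Wnt7b* 0.255 ± 0.0825%. By level per length the order in WT was *Wnt8a*, *Wnt5b*, *Wnt6* and *Wnt11*, of which the first pair overlapped across libraries. In KO it was *Wnt7b*, *Wnt8a*, *Wnt5b* and *Wnt11*, with the last pair overlapping, and in KO_PAPC *Wnt8a*, *Wnt5b* and *Wnt6*, none of which overlapped. These shares depend on the exon lengths of the annotation and are a description without a test.

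*Wls*, the carrier that takes acylated Wnt proteins to the cell surface (ENSMUSG00000028173, chromosome 3, 159839672 to 159938664, plus strand), was 4.65-fold lower in KO than in WT. Its level was 58.5, 59.7 and 59.8 CPM in WT, 12, 12.1 and 14.1 CPM in KO and 47, 47.2 and 44.7 CPM in KO_PAPC. KO was far below both other groups, and KO_PAPC lay below WT without overlap. As a log2 fold change, the difference was -2.22 ± 0.05 for KO against WT (adjusted p = 2.81e-28, edgeR), 2.03 ± 0.06 for KO_PAPC against KO (adjusted p = 4.58e-28, edgeR) and -0.19 ± 0.04 for KO_PAPC against WT. *Porcn*, which acylates the ligands upstream of Wls and is no member of the 48, was looked at after its values had been seen because it moved the other way. It was at 66.8, 65.9 and 69.8 CPM in WT, 128, 125 and 124 CPM in KO and 55.8, 58.7 and 54.5 CPM in KO_PAPC. The log2 fold change was 0.90 ± 0.03 for KO against WT (adjusted p = 4.63e-23, edgeR) and -0.99 ± 0.03 for KO_PAPC against KO (adjusted p = 7.77e-25, edgeR).

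**Figure D2:**
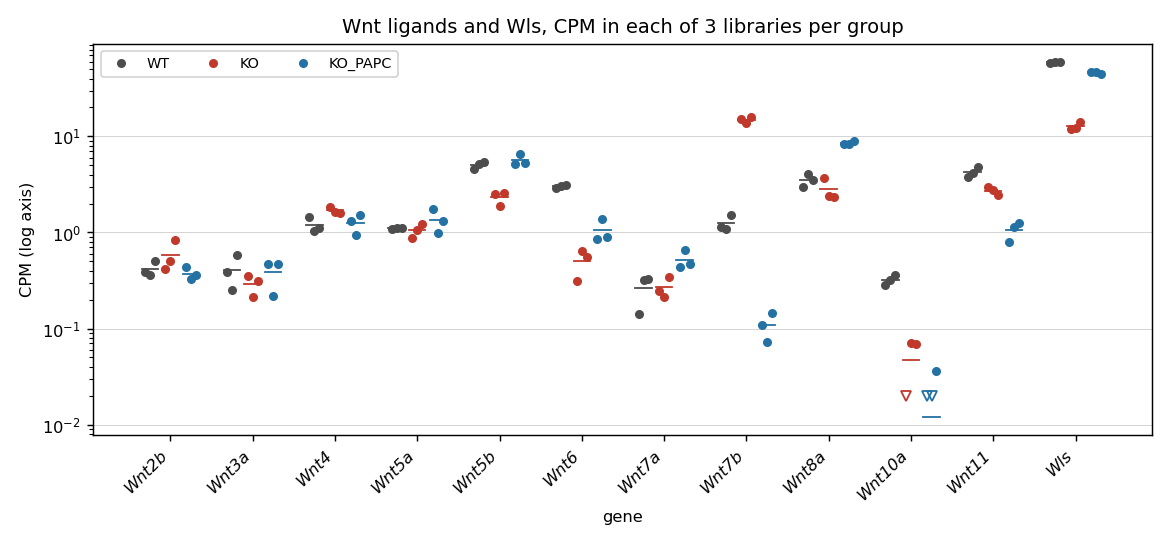
CPM of the 11 Wnt ligands and *Wls* on a log axis, with 1 point per library (3 per group), a bar at the group mean and open triangles for libraries with 0 counts, drawn at an arbitrary low position. *Wnt7b* stands at 13.8 to 16.0 CPM in KO and at 0.0731 to 0.144 CPM in KO_PAPC, and *Wls* is lowest in KO.

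Among the receptors, 10 of 13 were called lower in KO than in WT and 1, *Fzd9*, higher (all genes: 37.1% and 36.8%). The median log2 fold change of the 13 was -0.32. For KO_PAPC against KO, 9 were called higher and 3 lower (all genes: 39.6% and 42.2%), with a median of 0.71. For KO_PAPC against WT, 6 were called higher and 2 lower (all genes: 34.2% and 36.4%), with a median of 0.08. With library totals these were 4 higher and 6 lower, with a median of -0.08. The changes in KO were at least 2-fold for *Fzd2*, *Fzd10*, *Fzd1* and *Fzd8*, and at most 1.49-fold for the other receptors called. Frizzled genes encode the seven-pass receptors that bind Wnt ligands.

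*Fzd2* (ENSMUSG00000050288, chromosome 11, 102604396 to 102608058, plus strand) had the largest change of the receptors for KO against WT and for KO_PAPC against KO. It was at 60.3, 66.7 and 67.6 CPM in WT, 13.6, 14.3 and 13.2 CPM in KO and 90.8, 98.2 and 95.9 CPM in KO_PAPC. KO_PAPC stood above WT and WT above KO, with no overlap. In the fit the log2 fold change was -2.24 ± 0.05 for KO against WT (adjusted p = 2.81e-28, edgeR), 2.96 ± 0.05 for KO_PAPC against KO (adjusted p = 1.69e-35, edgeR) and 0.72 ± 0.04 for KO_PAPC against WT (adjusted p = 8.86e-14, edgeR).

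*Fzd10* was at 16.9, 18 and 18.5 CPM in WT, 7.53, 8.24 and 7.37 CPM in KO and 18.3, 20 and 18.6 CPM in KO_PAPC. KO lay lowest, and WT and KO_PAPC overlapped. Its fitted log2 fold change was -1.21 ± 0.07 for KO against WT, 1.46 ± 0.07 for KO_PAPC against KO and 0.25 ± 0.06 for KO_PAPC against WT, of which the last was not called with library totals (adjusted p = 0.198). *Fzd1* was at 5.36, 5.07 and 5.47 CPM in WT, 2.24, 2.18 and 2.8 CPM in KO and 3.64, 4.39 and 4.99 CPM in KO_PAPC, with a log2 fold change of -1.14 ± 0.12 for KO against WT and 1.01 ± 0.14 for KO_PAPC against KO. *Fzd8* was at 6.46, 6.94 and 6.74 CPM in WT, 3.43, 2.86 and 3.29 CPM in KO and 4.54, 6.25 and 5.71 CPM in KO_PAPC, with a log2 fold change of -1.07 ± 0.10 and 0.95 ± 0.12 in the same comparisons. For both genes KO was the lowest group without overlap. Neither passed the test for KO_PAPC against WT, at -0.12 for *Fzd1* and -0.12 for *Fzd8*, though with library totals both were called lower (adjusted p = 0.0256 and 0.0170).

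*Fzd7*, the Frizzled gene with the highest level per length, was at 59.9 RPKM in WT, 54.6 RPKM in KO and 90.6 RPKM in KO_PAPC as a mean of 3 libraries. It was lower in KO by 0.13 ± 0.02 on the log2 scale and higher in KO_PAPC than in KO, with a log2 fold change of 0.90 ± 0.03 (adjusted p = 1.69e-27, edgeR). The summed level of the 10 Frizzled genes was 105 to 107 RPKM in WT, 77.3 to 79.4 RPKM in KO and 142 to 144 RPKM in KO_PAPC. *Fzd7* held 56.6 ± 1.23% of it in WT (SD, n = 3), 69.7 ± 0.215% in KO and 63.6 ± 1.03% in KO_PAPC, and *Fzd2* held 16.7 ± 0.935%, 4.78 ± 0.174% and 18.2 ± 0.723%. In WT and KO_PAPC *Fzd2* came next after *Fzd7* in level per length. In KO it came after *Fzd5* and overlapped *Fzd6* across libraries, so its place relative to *Fzd6* was not resolved. *Fzd1* and *Fzd8* were the lowest of the 10 in every group.

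**Figure D3:**
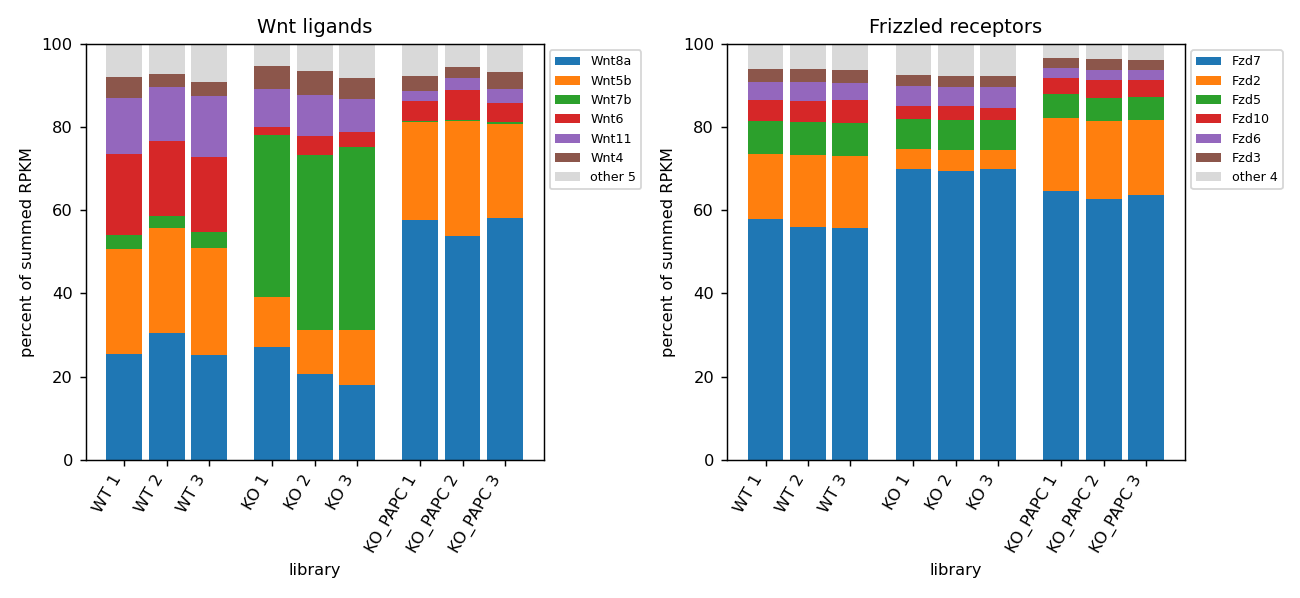
Share of each gene in the summed RPKM of the 11 ligands (left) and of the 10 Frizzled receptors (right), as stacked bars with 1 bar per library. *Wnt7b* takes 41.8% of the ligand sum in KO and 3.39% in WT on average, and *Fzd2* takes 4.78% of the Frizzled sum in KO and 16.7% in WT.

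The remaining receptors changed by less than 2-fold in all 3 comparisons. *Fzd3* and *Fzd5* were lower in KO than in WT, with log2 fold changes of -0.58 and -0.54, and higher in KO_PAPC than in KO, at 0.93 and 0.63. *Fzd6* was lower in KO, at -0.32, and lower in KO_PAPC than in WT, at -0.35. *Fzd4* and *Fzd9* went the other way for KO_PAPC against KO, with called changes of -0.26 and -0.55. The rise of *Fzd9* in KO, 0.32 ± 0.10, was not called with DESeq2 (adjusted p = 0.0720) or when WT replicate 1 was left out (adjusted p = 0.0607). *Fzd4* for KO against WT, at 0.12, was called, among the alternatives, only without WT replicate 1 (adjusted p = 0.0173). Of the co-receptors that Frizzled proteins need for β-catenin signalling, *Lrp6* was lower in KO at -0.12 and higher in KO_PAPC than in KO at 0.25, and *Lrp5* was lower in KO_PAPC than in KO at -0.28 and than in WT at -0.36. *Lrp5* for KO against WT, at -0.08, passed without WT replicate 1 (adjusted p = 0.000302) and without the filter on low counts (adjusted p = 0.0134). *Lgr4*, a receptor for the R-spondins that keep Frizzled proteins on the membrane, was at -0.11 for KO against WT, 0.71 for KO_PAPC against KO and 0.60 for KO_PAPC against WT, all called. For KO_PAPC against WT, *Fzd4* was called lower with library totals (adjusted p = 0.00124) and without WT replicate 3 (adjusted p = 0.0375). *Fzd9* was called lower there with totals (adjusted p = 0.00451), without WT replicate 1 (adjusted p = 0.0242) and with a block for the replicate number (adjusted p = 0.0499). *Fzd5* was called higher there with RLE factors (adjusted p = 0.0341), the joint fit of all libraries (adjusted p = 0.0286) and the block (adjusted p = 0.0212). With totals *Fzd5* turned to -0.08 and *Lrp6* from 0.12 to -0.04. Totals also called *Fzd6* lower for KO_PAPC against KO, at -0.19 (adjusted p = 0.00493).

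The transducers had the smallest median size of change of these roles for KO against WT, an absolute log2 fold change of 0.20, beside 0.36 over all genes tested. No transducer changed by 2-fold for KO against WT. There 5 of 12 were called higher and 4 lower (all genes: 36.8% and 37.1%) with a median log2 fold change of 0.02. For KO_PAPC against KO, 8 were called higher and 3 lower (all genes: 39.6% and 42.2%) with a median of 0.23. In that comparison *Dvl1* alone passed 2-fold. With library totals 6 were higher and 4 lower, with a median of 0.07. For KO_PAPC against WT, 9 were called higher and 1, *Dvl3*, lower (all genes: 34.2% and 36.4%), with a median of 0.21. But with library totals 5 transducers were higher and 4 lower there, with a median of 0.05. By that scaling *Apc*, *Gsk3b* and *Tcf7l1* were not called, and *Ctnnb1*, *Gsk3a* and *Tcf7l2* were lower. The last pair were also called lower without a single library, *Gsk3a* without KO_PAPC replicate 2 (adjusted p = 0.0173) and *Tcf7l2* without KO_PAPC replicate 1 (adjusted p = 0.0384). With a block for the replicate number *Gsk3a* was called lower as well (adjusted p = 0.0449).

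*Ctnnb1*, which encodes β-catenin (ENSMUSG00000006932, chromosome 9, 120929216 to 120960507, plus strand), was at 896, 898 and 894 CPM in WT, 1044, 1045 and 1044 CPM in KO and 827, 839 and 837 CPM in KO_PAPC. KO was highest and KO_PAPC lowest on this scale, without overlap, yet all differences were small. As a log2 fold change, the difference was 0.22 ± 0.02 for KO against WT (adjusted p = 1.35e-12, edgeR) and -0.16 ± 0.02 for KO_PAPC against KO (adjusted p = 5.26e-08, edgeR). For KO_PAPC against WT it was 0.06 ± 0.02 (adjusted p = 0.0229, edgeR) and -0.10 with library totals (adjusted p = 0.000398), so its direction depends on the scaling. Without KO_PAPC replicate 3, WT replicate 2 or WT replicate 3 it was not called (adjusted p = 0.0841, 0.0582 and 0.0924). The overlap with *Ulk4* on the other strand covers 15.1% of the *Ctnnb1* exon bases, and *Ulk4* itself had 54 to 174 counts per library. These are RNA levels; β-catenin is controlled mainly through the stability of the protein, which was not measured here.

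*Dvl1*, a Dishevelled gene, was at 67.5, 73.3 and 72.7 CPM in WT, 40.9, 40.5 and 39.5 CPM in KO and 76, 80.9 and 74.2 CPM in KO_PAPC. KO was the lowest group and the other two did not overlap. The log2 fold change was -0.82 ± 0.04 for KO against WT (adjusted p = 2.51e-19, edgeR), 1.10 ± 0.04 for KO_PAPC against KO (adjusted p = 2.53e-24, edgeR) and 0.28 ± 0.04 for KO_PAPC against WT. *Dvl3*, in contrast, was not called for KO against WT and was lower in KO_PAPC than in KO, at -0.47. *Dvl2* rose by 0.14 in KO, and for KO_PAPC against KO its 0.11 turned to -0.05 with library totals. Of the genes of the destruction complex, *Axin1*, *Apc*, *Gsk3a* and *Gsk3b* had log2 fold changes between -0.02 and 0.18 for KO against WT and between -0.25 and 0.35 for KO_PAPC against KO. Other genes on the opposite strand overlap 19.7% of the exon bases of *Dvl2* and 28.3% of those of *Gsk3a*. *Bcl9*, a β-catenin co-activator, was at -0.32, 0.71 and 0.39 for KO against WT, KO_PAPC against KO and KO_PAPC against WT, all called.

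The TCF factors changed in opposite directions in KO. *Tcf7* was called higher in KO, with a log2 fold change of 0.32 ± 0.03, whereas *Tcf7l1*, a repressor of Wnt targets in ES cells, was lower, at -0.63 ± 0.04, and *Tcf7l2* lower, at -0.38 ± 0.05. For KO_PAPC against KO the changes were 0.21, 0.82 and 0.30, all called, though that of *Tcf7* was not called with library totals (adjusted p = 0.174). *Tcf7* held 50.01 ± 0.948% of the summed RPKM of the 3 genes in WT (SD, n = 3), 65.6 ± 1.12% in KO and 56.4 ± 0.254% in KO_PAPC. *Tcf7l1* held 45.7 ± 1.17%, 30.9 ± 1.23% and 40.5 ± 0.368%. With *Lef1*, the other member of this family and not one of the 48 genes, included, *Lef1* held 4.09 ± 0.0686% of the sum in WT, 4.25 ± 0.0559% in KO and 12.6 ± 0.140% in KO_PAPC.

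Of the secreted inhibitors, *Dkk1*, *Sfrp1* and *Sfrp2* fell together in KO, by 2.95-fold to 3.39-fold, and rose from KO to KO_PAPC by 2.02-fold to 5.73-fold. All 4 genes were called for KO_PAPC against KO, 3 higher and 1, *Sfrp5*, lower (all genes: 39.6% and 42.2%, or 81.8% together). The median log2 fold change was -1.59 for KO against WT, 1.47 for KO_PAPC against KO and -0.19 for KO_PAPC against WT, the last with a range from -0.26 to -0.09 without single libraries. Sfrp proteins bind Wnt ligands outside the cell, and Dkk1 blocks the co-receptors Lrp5 and Lrp6.

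*Sfrp1* (ENSMUSG00000031548, chromosome 8, 23411502 to 23449632, plus strand) was at 119, 123 and 123 CPM in WT, 40.2, 41.1 and 42.2 CPM in KO and 141, 140 and 138 CPM in KO_PAPC. KO_PAPC was highest and KO lowest, without overlap. In the fit the log2 fold change was -1.56 ± 0.03 for KO against WT (adjusted p = 4.12e-29, edgeR), 1.93 ± 0.03 for KO_PAPC against KO (adjusted p = 5.58e-34, edgeR) and 0.36 ± 0.03 for KO_PAPC against WT. *Sfrp2* was at 52.2, 59 and 55.4 CPM in WT, 19.1, 17.7 and 17.5 CPM in KO and 90.2, 92.8 and 94 CPM in KO_PAPC. The order of the groups was the same as for *Sfrp1*, again without overlap. Its fitted log2 fold change was -1.62 ± 0.05 for KO against WT (adjusted p = 1.68e-24, edgeR), 2.52 ± 0.04 for KO_PAPC against KO (adjusted p = 2.34e-34, edgeR) and 0.90 ± 0.04 for KO_PAPC against WT. *Gm26771* on the other strand overlaps 16.1% of its exon bases and had 5 to 13 counts per library.

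*Dkk1*, whose promoter window held both matches to the TCF core shown above, was at 6.53, 7.12 and 6.48 CPM in WT, 2.28, 1.93 and 1.73 CPM in KO and 2.52, 3.95 and 4.23 CPM in KO_PAPC. No groups overlapped, and KO_PAPC lay between KO and WT. As a log2 fold change, the difference was -1.76 ± 0.12 for KO against WT (adjusted p = 4.45e-15, edgeR), 1.02 ± 0.16 for KO_PAPC against KO (adjusted p = 7.67e-07, edgeR) and -0.75 ± 0.13 for KO_PAPC against WT. *Sfrp5* was at 5.15, 5.32 and 5.14 CPM in WT, 5.78, 4.21 and 4.95 CPM in KO and 1.98, 1.9 and 2.08 CPM in KO_PAPC. WT and KO overlapped, and KO_PAPC lay below both. The log2 fold change was -1.16 ± 0.14 for KO_PAPC against KO and -1.22 ± 0.12 for KO_PAPC against WT (adjusted p = 2.62e-09 for the latter, edgeR). Per exon length, the sum of the 4 inhibitors was 56.9 to 61.3 RPKM in WT, 20.6 to 22.0 RPKM in KO and 76.3 to 78.1 RPKM in KO_PAPC, and *Sfrp1* and *Sfrp2* held most of it in every group.

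The feedback targets, genes that β-catenin signalling is known to raise and most of which dampen it in turn, divided in KO. *Notum*, *Axin2* and *Znrf3* were called higher than in WT, and *Nkd1*, *Nkd2* and *Rnf43* lower (all genes: 36.8% and 37.1%, or 73.8% together). The median log2 fold change of the 6 tested was thus -0.01. Without single libraries that median ranged from -0.06 to 0.02, and it was -0.35 with DESeq2 and -0.36 without the filter, both of which also took in *Lgr5*. For KO_PAPC against KO, *Nkd1* and *Nkd2* were called higher and *Notum*, *Axin2* and *Znrf3* lower (all genes: 39.6% and 42.2%). For KO_PAPC against WT 4 feedback targets were called higher and 2 lower (all genes: 34.2% and 36.4%).

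*Axin2*, a scaffold of the destruction complex and a widely used read-out of the pathway (ENSMUSG00000000142, chromosome 11, 108920349 to 108950783, plus strand), was at 13.1, 14 and 14 CPM in WT, 23.4, 23.8 and 24.5 CPM in KO and 17.3, 16.8 and 16.7 CPM in KO_PAPC. KO was highest, KO_PAPC lay between, and the groups did not overlap. In the fit the log2 fold change was 0.80 ± 0.06 for KO against WT (adjusted p = 1.08e-14, edgeR), -0.33 ± 0.06 for KO_PAPC against KO (adjusted p = 1.56e-06, edgeR) and 0.47 ± 0.06 for KO_PAPC against WT (adjusted p = 2.24e-07, edgeR). *Notum*, whose product removes the lipid from Wnt ligands, was at 24, 24.3 and 24.1 CPM in WT, 59.1, 55.3 and 55.1 CPM in KO and 7.2, 6.25 and 5.85 CPM in KO_PAPC. KO was highest and KO_PAPC lowest. Its fitted log2 fold change was 1.23 ± 0.04 for KO against WT (adjusted p = 7.1e-23, edgeR), -2.97 ± 0.06 for KO_PAPC against KO (adjusted p = 1.1e-31, edgeR) and -1.74 ± 0.07 for KO_PAPC against WT (adjusted p = 9.83e-17, edgeR). Antisense genes overlap 38.1% of the exon bases of *Notum* (chromosome 11, 120653788 to 120661175, minus strand). The larger of them, *Notumos*, had 54 to 73 counts in WT, 217 to 248 in KO and 16 to 24 in KO_PAPC. Without strand information, reads from the overlapping bases cannot be told apart. The methods describe a count that leaves out reads overlapping several genes, so such reads may be in neither count.

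*Nkd1*, which encodes an inhibitor of Dishevelled, moved against *Axin2* for KO against WT and for KO_PAPC against KO, whereas both were called higher for KO_PAPC against WT. It was at 12.6, 11.6 and 10.4 CPM in WT, 6.2, 6.85 and 6.47 CPM in KO and 17, 17.8 and 16.5 CPM in KO_PAPC. KO was lowest and KO_PAPC highest, without overlap. As a log2 fold change, the difference was -0.83 ± 0.08 for KO against WT (adjusted p = 7.51e-11, edgeR), 1.56 ± 0.07 for KO_PAPC against KO (adjusted p = 1.01e-20, edgeR) and 0.73 ± 0.07 for KO_PAPC against WT. Its relative *Nkd2* was at 9.46, 8.16 and 8.84 CPM in WT, 7.04, 6.75 and 6.99 CPM in KO and 12, 14.3 and 14.7 CPM in KO_PAPC. The groups stood in the same order as for *Nkd1*. The changes were -0.35 ± 0.08, 1.15 ± 0.08 and 0.80 ± 0.08 for KO against WT, KO_PAPC against KO and KO_PAPC against WT.

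*Znrf3* and *Rnf43* encode related ubiquitin ligases that remove Frizzled receptors from the membrane. *Znrf3* was at 0.32 for KO against WT, -0.19 for KO_PAPC against KO and 0.13 for KO_PAPC against WT. The last turned to -0.03 with library totals, and it was not called with DESeq2 (adjusted p = 0.0858) or without KO_PAPC replicate 1 (adjusted p = 0.130), KO_PAPC replicate 3 (adjusted p = 0.0763) or WT replicate 2 (adjusted p = 0.191). *Rnf43* was lower in KO at -0.48, a call lost with DESeq2 (adjusted p = 0.0981) and without KO replicate 1 (adjusted p = 0.0972). For KO_PAPC against WT its call, at -0.36, was lost with DESeq2 (adjusted p = 0.284), RLE factors (adjusted p = 0.0506), no filter (adjusted p = 0.0935), the joint fit of all libraries (adjusted p = 0.0617) and the replicate block (adjusted p = 0.0501). It was also lost without any 1 of 5 libraries, with adjusted p from 0.0575 to 0.140, and was kept without KO_PAPC replicate 2, with library totals and with the filter at a mean of 10 counts. *Lgr5*, a stem cell marker and R-spondin receptor, had 1 to 8 counts per library and was not tested.

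**Figure D4:**
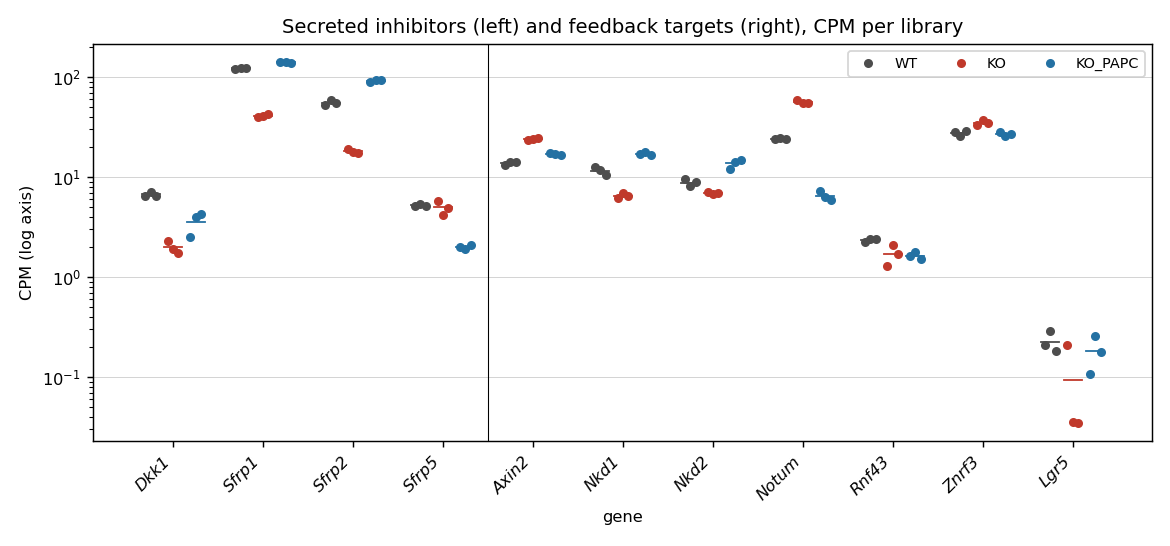
CPM of the 4 secreted inhibitors (left of the line) and the 7 feedback targets (right) on a log axis, with 1 point per library, 3 per group, and a bar at the group mean. *Sfrp1*, *Sfrp2*, *Nkd1* and *Nkd2* are lowest in KO, whereas *Axin2* and *Notum* are highest in KO.

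Set side by side by role, the share of tested genes called lower in KO was 3 of 8 ligands, 10 of 13 receptors, 4 of 12 transducers, 3 of 4 secreted inhibitors and 3 of 6 feedback targets, where 37.1% of all genes were called lower. The share called higher for KO_PAPC against KO was 5 of 9 ligands, 9 of 13 receptors, 8 of 12 transducers, 3 of 4 secreted inhibitors and 2 of 6 feedback targets, where 39.6% of all genes were. The differences between these roles were not tested. The summed level of the feedback targets was 86.8 to 90.1 CPM in WT, 129 to 132 CPM in KO and 82.7 to 83.6 CPM in KO_PAPC. Most of the difference between WT and KO lay in *Notum*, without which the sum was 62.5 to 66.2 CPM in WT, 71.0 to 76.3 CPM in KO and 76.4 to 76.9 CPM in KO_PAPC.

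A further list of 63 Wnt pathway genes outside the 48 was examined in the same way. For KO against WT, 17 of the 52 tested were called higher and 26 lower, with a median log2 fold change of -0.14. For KO_PAPC against KO, 28 of 51 were called higher and 18 lower, with a median of 0.21, and for KO_PAPC against WT 24 of 50 were higher and 16 lower, with a median of 0.08. With library totals these counts were 22 and 21, then 17 and 25, with medians of 0.04 and -0.08. Among 8 further target genes, 5 were called lower and 1 higher for KO against WT, and 7 were higher and 1 lower for KO_PAPC against KO. For KO_PAPC against WT, 1 of the 8 did not pass the filter on low counts, and the 7 tested were called higher. The untested target was the 1 called lower for KO_PAPC against KO, at a log2 fold change of -3.42. That count of 7 therefore leaves out the target that went the other way. Of all genes, 36.8% were called higher and 37.1% lower for KO against WT. The shares were 39.6% and 42.2% for KO_PAPC against KO, and 34.2% and 36.4% for KO_PAPC against WT. *T*, the streak gene also known as Brachyury, was at 2.12, 1.69 and 1.92 CPM in WT, 0.21, 0.25 and 0.415 CPM in KO and 16.5, 15.7 and 14.2 CPM in KO_PAPC, with a log2 fold change of -2.69 ± 0.26 for KO against WT and 3.18 ± 0.10 for KO_PAPC against WT. *T* also belongs to the list of streak and mesoderm markers above. *Sp5*, a transcription factor and direct target of the pathway, was at -2.99 for KO against WT, 5.20 for KO_PAPC against KO and 2.22 for KO_PAPC against WT. Its relative *Sp8* was at -4.20, 4.77 and 0.57.

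*Lef1* did not pass the test for KO against WT, at -0.01 ± 0.05 (adjusted p = 0.869, edgeR), and was higher in KO_PAPC, at 97.7, 95.2 and 96.7 CPM, than in WT, at 24.9, 24.8 and 25.2 CPM. The log2 fold change was 2.12 ± 0.04 for KO_PAPC against WT (adjusted p = 1.17e-23, edgeR) and 2.13 ± 0.04 for KO_PAPC against KO. *Cdx2*, a homeobox target of the caudal embryo and of trophoblast, was at 1.34 for KO_PAPC against WT. Of the ligands outside the 48, *Wnt3*, which is needed for the primitive streak, was at 2.61, 2.7 and 2.68 CPM in WT, 0.35, 0.357 and 0.484 CPM in KO and 4.75, 4.6 and 4.63 CPM in KO_PAPC. KO was lowest and KO_PAPC highest without overlap, with log2 fold changes of -2.73 ± 0.21 for KO against WT (adjusted p = 1.59e-13, edgeR) and 3.70 ± 0.19 for KO_PAPC against KO (adjusted p = 7.46e-20, edgeR). *Wnt1*, a ligand of the midbrain and neural crest, had 104 counts over the WT libraries and 3 over KO, a ratio of 35.4 (exact 95% interval 11.8 to 174, counting error only), and 53 counts over KO_PAPC. *Lgr6*, a relative of *Lgr4* and *Lgr5*, went the other way for KO_PAPC against KO, at -3.19 ± 0.28, and the glypican *Gpc4*, which assists ligand binding, was at -1.36 for KO_PAPC against WT.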

How the data were processed

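The authors made the deposited counts per Ensembl gene from single-end reads of unstranded libraries on the mouse build GRCm38. The submitters' processing notes name bcl2fastq 2.20.0.422, STAR 2.7.2b and featureCounts 1.6.5 for all 9 libraries, although the methods describe an older pipeline for part of the work. No normalization had been applied to these whole numbers, and 0 columns of per-sample values were left unused. Reads that overlap genes on both strands cannot be assigned with certainty. The methods describe leaving out reads that overlap several genes, while the exon lengths used for RPKM keep the overlapping bases. Symbols, positions and exon lengths were joined by Ensembl ID from GENCODE M21. All 150 listed symbols matched 1 ID each, and 241 of the 55471 IDs had no symbol.

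Groups came from the sample titles. Each comparison was fitted on its own 6 libraries over the whole table with edgeR 4.0.16 in R 4.3.3 (filterByExpr, TMM, quasi-likelihood test, Benjamini-Hochberg adjustment). CPM and RPKM were computed from library totals. Errors after ± are SD over 3 libraries for levels and SE for log2 fold changes. Every pair of replicates differed by more than counting noise. Counting intervals are exact and cover counting error only. The 48 genes, the other lists and the alternatives were chosen with earlier results of these data known. Values in each library are given for genes with a called change of at least 2-fold and a mean of at least 1 CPM in a group compared, and for *Ctnnb1*, *Axin2* and *Wls*. Of the further Wnt genes, at most 5 per comparison were named by the same limits and size, and *Porcn* was added after its values were seen. Promoter windows came from RefSeq (GRCm38.p6), and 16 of the 48 genes had none. The alternatives were DESeq2 1.42.0, RLE factors, scaling by totals, 2 filters, fitting all 9 libraries at once, a block for the replicate number, a tested minimum fold change of 2 and each library left out in turn.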

Additional observations from a re-analysis of the deposited data

How the results depend on the processing

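The counts of called Wnt genes stayed within 1.5 times of the reported ones under DESeq2, RLE factors, both other filters, the joint fit, the replicate block and each library left out. Requiring a fold change of 2 in the test itself left 2 higher and 7 lower for KO against WT, 9 and 2 for KO_PAPC against KO, and 1 and 3 for KO_PAPC against WT. Library totals gave 18 lower and 16 higher in the last comparison. With a library left out, the counts higher and lower were 10 to 11 and 24 to 26, then 27 to 28 and 12, then 22 to 23 and 10 to 12. The replicate numbers did not pair the libraries across all groups (correlations of deviations from -0.11 to 0.17). Between WT and KO_PAPC, 2 of 3 libraries were nearest to their own number, and between the other groups 0 of 3. The correlations for WT and KO_PAPC were 0.17, 0.11 and -0.00057 for replicates 1, 2 and 3, and a shared batch there was not tested. With the replicate number as a block the counts were 11 and 24, 28 and 12, and 25 and 12. Of 1890 values of single genes under an alternative, 1709 kept direction and call, 128 lost the call (86 of them in the test against a fold change of 2), 24 gained it and 29 changed sign. Sign changes with library totals for KO_PAPC against KO were *Dvl2* (-0.053), *Apc* (-0.16) and *Rnf43* (-0.040). For KO_PAPC against WT they were *Wnt2b* (-0.16), *Wnt3a* (-0.074), *Fzd5* (-0.083), *Lrp6* (-0.044), *Apc* (-0.028), *Ctnnb1* (-0.10), *Znrf3* (-0.034) and the receptor median (-0.083). These follow from the shift in scale given above. Filters turned *Fzd6* (0.0036, no filter) and *Apc* (-0.00085, mean of 10 counts) for KO_PAPC against KO and *Wnt2b* (-0.00066, mean of 10 counts) for KO_PAPC against WT, all near 0. Single libraries turned only uncalled values, with ranges of -0.19 to 0.041 (*Wnt5a*), -0.051 to 0.0021 (*Axin1*), -0.031 to 0.012 (*Gsk3b*) and -0.18 to 0.044 (*Sfrp5*) for KO against WT, -0.046 to 0.018 (*Fzd6*), -0.023 to 0.038 (*Apc*) and -0.034 to 0.29 (*Rnf43*) for KO_PAPC against KO, and -0.11 to 0.16 (*Wnt2b*) and -0.16 to 0.42 (*Wnt3a*) for KO_PAPC against WT. Depth limits *Wnt3a*, *Wnt7a*, *Wnt10a* and *Lgr5*, which had at most 18 counts in any library.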
